A study of Sus scrofa with 16 samples.

Results

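The genes of the glycoprotein hormone subunits CGA, FSHB and TSHB were examined in pituitary RNA of 16 Puławska gilts, a native pig breed. They were taken by symbol and Ensembl identifier and are 3 of the 25880 genes in the count table. All 3 passed the filter on low counts. The gilts formed a low feed conversion group (LFC, n = 8, libraries 1 to 8) and a high feed conversion group (HFC, n = 8, libraries 9 to 16), feed conversion being how much feed a pig needs for each unit of growth. All were females, with an age of 3 months in the labels, whereas the methods describe older animals at the end of the fattening test. The gilts of both groups were unrelated, came from different farms and shared the same housing and feed. The labels give the tissue as pituitary, although their extraction text speaks of fat, and the methods describe whole glands. In whole glands, anterior, intermediate and posterior lobe RNA are read together. GH1 and POMC, defining mRNAs of pituitary hormone cells, had at least 9641 and 5926 CPM (counts per 1e6 counts, scaled between libraries) in every library. Each library stands for a single gilt.

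Follicle-stimulating hormone (FSH), luteinizing hormone (LH) and thyroid-stimulating hormone (TSH) are heterodimers. They share the common alpha subunit encoded by CGA, and a separate beta subunit gives each hormone its receptor specificity. FSHB encodes the beta subunit of FSH and is expressed in gonadotrophs, TSHB encodes that of TSH and is expressed in thyrotrophs, and CGA is expressed in both cell types. Alpha subunit is made in excess over the beta subunits in the pituitary, and free alpha chains are secreted. FSHB is controlled by activin, inhibin, follistatin and gonadotropin-releasing hormone. TSHB is driven by thyrotropin-releasing hormone and repressed by thyroid hormone. LHB, the beta subunit gene of LH, is not analysed here, so the gonadotropin side is described by FSHB alone.

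In the RefSeq annotation of Sscrofa11.1, CGA (ENSSSCG00000025434) spans positions 55552675 to 55569057 of chromosome 1. FSHB (ENSSSCG00000013328) spans 30395769 to 30399282 of chromosome 2, and TSHB (ENSSSCG00000006749) spans 105553070 to 105558769 of chromosome 4. The 3 subunits are thus encoded on separate chromosomes. Sequencing depth, as total counts, lay between 10.973 and 23.06 M, with a mean of 18.4 ± 3.36 M (SD, n = 8) in LFC and 15.2 ± 3.24 M (SD, n = 8) in HFC.

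The libraries did not separate the subunits by feed conversion, and HFC library 16 stood apart. In it, CGA took 0.153% of all counts (95% Wilson interval 0.151 to 0.155%, counting error only). FSHB was also at its lowest there, and TSHB had a single count. The same library held the highest summed level of the melanotroph markers PAX7 and PCSK2, 2928 CPM against 2.47 to 30.5 CPM in LFC and 3.47 to 330.2 CPM in the rest of HFC. It also held the highest summed level of 5 pituicyte markers (GFAP, VIM, AQP4, SCN7A and COL25A1, of 7 listed), 2035 CPM against 105.1 to 1311 CPM elsewhere. VIM made up 1868 CPM of that sum and COL25A1 was also at its highest there, whereas GFAP was higher in libraries 13 and 14, and AQP4 and SCN7A were within the range of the others. NR5A1, the gonadotroph factor SF1, had its lowest level there, 34.7 CPM against 102.0 to 417.4 CPM in the other 15 libraries. TRHR, DIO2 and GATA2, listed as thyrotroph markers, summed to 68.0 CPM in it and to 105.4 to 233.1 CPM elsewhere. Of these, GATA2 was at its lowest there (6.50 CPM), whereas TRHR and DIO2 were lower in at least 1 other library. PAX7 was at 0 in LFC library 5 and COL25A1 in LFC library 3. The part that the lobes or cell types in each gland had in these subunit levels was not tested. In bulk RNA, fewer cells of a type and less RNA per cell cannot be told apart. Values without library 16 are given beside those that it changed most.

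CGA was the most evenly expressed subunit in LFC, and over all libraries once library 16 was left out. The level in LFC was 14688 CPM at its lowest, 23045 CPM at its median and 30124 CPM at its highest. In HFC the lowest level was 1689 CPM, in library 16, the median 17435 CPM and the highest 27506 CPM. The groups overlapped between 14688 and 27506 CPM. HFC libraries 16 and 11 lay below every LFC library, library 11 with 10830 CPM, and LFC libraries 4 and 5 lay above every HFC library. For library 5 this rested on its scaling factor between libraries, 0.7513, the lowest of the series. As a share of counts, CGA took 2.248% there, against 2.939% in HFC library 10 and 2.511% in HFC library 13. By share, HFC library 14 (1.47%) also lay below every LFC library. Without library 16 the highest CGA level was 2.78 times the lowest over 15 libraries, whereas it was 17.8 times the lowest over all 16. Mean CGA was 22894 ± 6029 CPM (SD, n = 8) in LFC and 17474 ± 8485 CPM (SD, n = 8) in HFC.

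FSHB, the beta subunit of FSH, varied more than CGA once library 16 was left out. Its LFC levels had a lowest value of 1979 CPM, a median of 2743 CPM and a highest value of 7013 CPM, in library 1. In HFC they ran from 515.5 CPM in library 16 to 6530 CPM in library 15, around a median of 1842 CPM. Library 15, with the second highest FSHB of the series, had a TSHB level among the lowest. The groups overlapped for FSHB, with no split between them. The fold between the highest and lowest library was 13.6 over all 16 libraries and 6.50 without library 16. Mean FSHB was 3312 ± 1682 CPM (SD, n = 8) in LFC and 2682 ± 2082 CPM (SD, n = 8) in HFC.

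TSHB, the beta subunit of TSH, had by far the widest spread of the 3 subunits. Among LFC libraries it was lowest in library 3 at 33.4 CPM, had a median of 362.4 CPM and was highest in library 5 at 1548 CPM. In HFC, library 16 had 1 count (exact 95% Poisson interval 0.0253 to 5.57 counts), library 11 had 28 counts or 1.35 CPM, and library 15 had 94 counts or 5.91 CPM. The 5 other HFC libraries lay between 59.0 and 829.3 CPM, inside the LFC range. Total counts were 19.3, 17.3 and 18.3 M in libraries 11, 15 and 16 and 10.973 to 17.1 M in the 5 other HFC libraries. Without library 16 the highest and lowest TSHB levels differed 1143-fold.

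**Figure D1:**
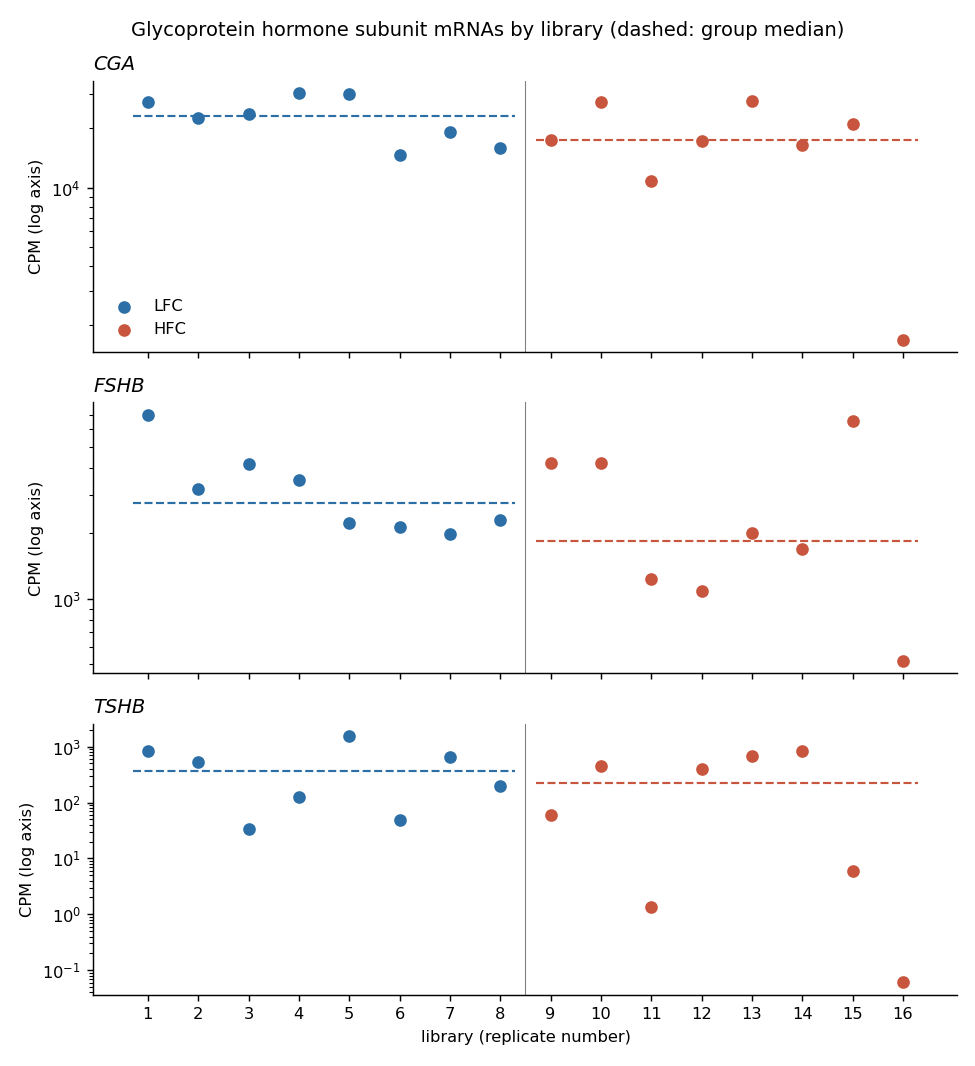
Levels of CGA, FSHB and TSHB in CPM on log axes, a panel for each gene, against the replicate number of the 16 libraries (blue LFC, red HFC, dashed lines group medians). HFC library 16 is lowest in all 3 panels, and TSHB is also low in HFC libraries 11 and 15, at 1.35 and 5.91 CPM.

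On the log2 CPM scale the standard deviation of TSHB within groups was 3.57, at rank 4 from the top among the 14319 genes tested, whose median was 0.43. The 3 genes above it, found after their values were seen, were OXT (3.87), ENSSSCG00000029441 (3.74), which has no symbol here, and RLBP1 (3.57). Without library 16 the SD of TSHB was 2.88 and its rank was 15. In LFC alone its SD was 2.01 and its rank 54, so the wide spread was also present in the group that lacked the lowest 3 libraries. CGA had an SD of 0.96 and its rank was 1242 over all libraries, but its SD was 0.43 and its rank 6824 without library 16, close to the median of 0.42 over all genes. FSHB fell between them, with an SD of 0.97 over all libraries and 0.82 without library 16.

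The comparison of HFC with LFC asks whether feed conversion went with the level of these hormones. None of the 3 subunits was called in the edgeR quasi-likelihood test with Benjamini-Hochberg adjustment, and of all 14319 genes tested 0 were called (0%) at an adjusted p of at most 0.05 and a fold of at least 1.3. DESeq2 called 20 genes, and no subunit was among them. An unadjusted p under 0.05 was met by 834 genes (5.82%), 615 higher in HFC (4.29%) and 219 lower (1.53%), and by none of the 3 subunits. On the log2 scale the HFC to LFC fold was -0.39 (SE 0.37) in CGA, -0.30 (SE 0.44) in FSHB and -0.72 (SE 1.13) in TSHB, each with an edgeR adjusted p of 1. All were on the lower side in HFC, and each was smaller than, or close to, its standard error.

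Mean log2 CPM was also compared by an exact permutation test over every way of choosing 8 of 16 libraries, two-sided. The difference of HFC minus LFC was -0.67 for CGA (exact p = 0.163), and 6 of the 8 HFC values lay under the mean of LFC. It was -0.59 for FSHB (exact p = 0.243, 5 of 8 lower) and -2.61 for TSHB (exact p = 0.17, 4 of 8 lower). For TSHB the mean of logs weighs the 3 very low libraries far more than the fitted ratio of means does, and limma-voom gave -2.98. Without library 16 the differences were -0.23 for CGA, -0.31 for FSHB and -1.49 for TSHB. The fitted fold changes also moved with single libraries, to -0.22 for CGA without HFC library 16, to -0.06 for FSHB without LFC library 1 and to -0.20 for TSHB without LFC library 5. Over all 16 libraries no difference in mean log2 CPM was larger than the SD within groups, pooled over both groups. That SD was 0.96 for CGA, 0.97 for FSHB and 3.57 for TSHB. For CGA and TSHB the difference was larger than the SD of LFC alone, 0.40 and 2.01. A p that misses the threshold does not show that the levels were alike, and the error of TSHB was the widest.

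Of the other abundant hormone genes in the same fit, PRL, which encodes prolactin, gave -1.86 on the log2 scale (SE 0.71, unadjusted p = 0.0186) and POMC, the precursor of corticotropin, gave 1.36 (SE 0.55, unadjusted p = 0.0242). Neither passed adjustment in edgeR, with adjusted p of 0.719 and 0.753. Without library 16 the values were -1.67 (SE 0.62) for PRL and 0.70 (SE 0.44, unadjusted p = 0.132) for POMC. GH1, which encodes growth hormone, gave -0.14 (SE 0.52).

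CGA counts exceeded the summed counts of FSHB and TSHB in all 16 libraries. Transcript lengths were not available, so these are ratios of read counts and not of molecules, and a gene with a longer transcript gains counts. The count ratio of CGA to FSHB plus TSHB had a median of 6.55 in LFC, with a range of 3.48 to 8.31, and a median of 6.21 in HFC, with a range of 3.23 to 11.8. Library 1 was lowest in LFC, where FSHB was highest. Library 15, the HFC library with the most FSHB, had the lowest ratio of the series, and library 16 followed at 3.28. The ratio had a 3.64-fold range over all libraries and also without library 16, beside ranges of CGA itself of 17.8-fold and 2.78-fold. Leaving out any single library kept the median over all libraries between 6.37 and 6.57.

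FSHB supplied most of the FSHB plus TSHB counts in every library, and the share of TSHB was the variable part. LHB is not among these counts, so they are not all of the beta subunit mRNA. TSHB made up a median of 9.29% of FSHB plus TSHB counts in LFC, from 0.799% (95% Wilson interval 0.734 to 0.870%) in library 3 to 40.9% (40.4 to 41.4%) in library 5. In HFC the median was 5.50%, or 9.61% without library 16 and so above that of LFC, the highest share was 33.0% (32.4 to 33.6%) in library 14, and the lowest apart from library 16 was 0.0905% (0.0739 to 0.111%) in library 15. Library 16 had its 1 TSHB count beside 8562 FSHB counts. Together the 3 genes took 1.78 to 3.88% of all counts in LFC and 0.1996 to 3.44% in HFC, the next lowest HFC value being 1.29%.

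**Figure D2:**
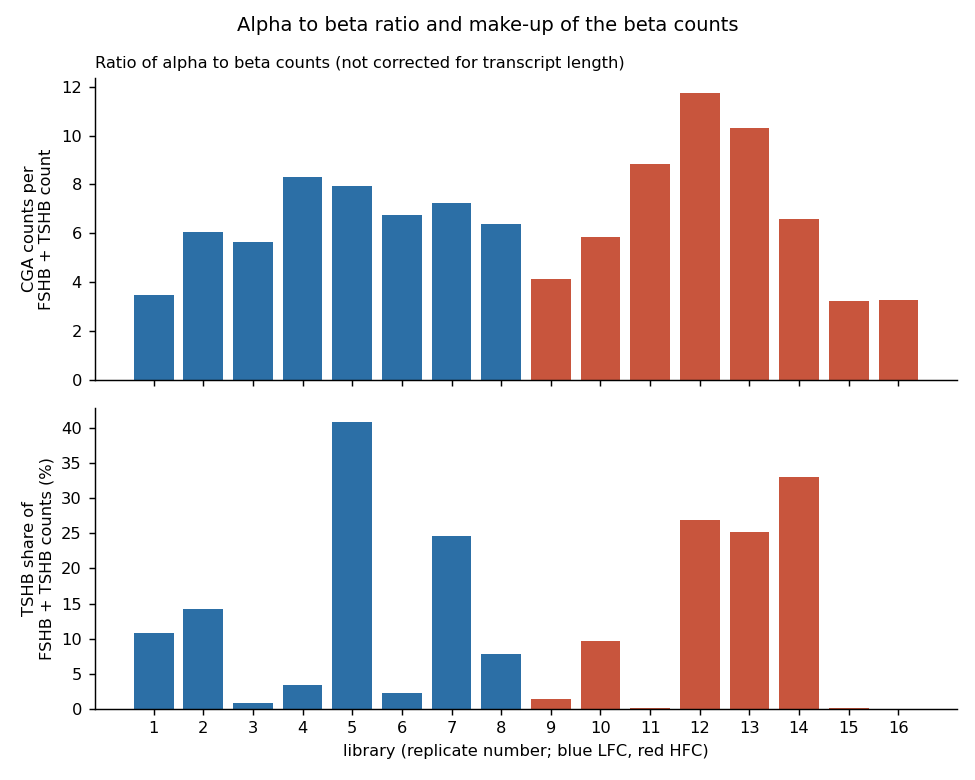
Upper panel, CGA counts per FSHB plus TSHB count, not corrected for transcript length; lower panel, TSHB as a percentage of FSHB plus TSHB counts; bars are the 16 libraries, blue LFC and red HFC. The alpha to beta ratio, which leaves out LHB, stays between 3.23 and 11.8, whereas the TSHB share runs from near 0 to 40.9%.

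A ratio of 2 subunits within a library depends on the scaling between libraries only through the prior count, which matters most where TSHB is near 0. No difference between the groups was detected in any of the 3 ratios. The log2 ratio of CGA to FSHB was 2.87 ± 0.53 (SD, n = 8) in LFC and 2.80 ± 0.91 (SD, n = 8) in HFC, a difference of -0.07 (exact permutation p = 0.843, adjusted p = 0.843 over 3 ratios). The ratio of CGA to TSHB was higher in HFC by 1.95 (exact permutation p = 0.201, adjusted p = 0.38), or by 2.08 with a prior count of 0.5. That of FSHB to TSHB was higher by 2.02 (exact permutation p = 0.253, adjusted p = 0.38). Without library 16 these 2 differences were 1.26 and 1.18.

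Co-variation between the subunits was examined on log2 CPM over the 16 libraries, in a family of 12 relations with permutation p-values from 100000 resamples. CGA and FSHB had a Pearson r of 0.74 (p = 0.001, adjusted p = 0.00804, n = 16) and a Spearman rho of 0.57 (p = 0.0229, adjusted p = 0.173). CGA and TSHB had an r of 0.78 (p = 0.00134, adjusted p = 0.00804) and a rho of 0.55 (p = 0.0288, adjusted p = 0.173). Both relations rested in good part on the lowest libraries. Without HFC libraries 11 and 16, r fell to 0.42 for CGA and FSHB (permutation p = 0.136) and to 0.28 for CGA and TSHB (permutation p = 0.336). Without library 16 alone, r was 0.55 for CGA and FSHB and 0.55 for CGA and TSHB.

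No joint variation of the beta subunits was detected. FSHB and TSHB had an r of 0.38 (permutation p = 0.152, adjusted p = 0.234) and a rho of 0.11 (p = 0.696, adjusted p = 0.927). Without library 16 the r was -0.05, and without libraries 16 and 1 it was -0.18. Library 15 had high FSHB with low TSHB, whereas libraries 12, 13 and 14 had FSHB of 1079 to 1997 CPM with TSHB of 396.1 to 829.3 CPM.

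Within the groups, the r of CGA with FSHB was 0.54 in LFC (exact permutation p = 0.164) and 0.74 in HFC (exact permutation p = 0.0162), or 0.52 in HFC without library 16. The r of CGA with TSHB was 0.41 in LFC (exact permutation p = 0.308) and 0.79 in HFC (exact permutation p = 0.0125), or 0.60 in HFC without library 16. For FSHB with TSHB it was 0.00 in LFC, 0.36 in HFC and -0.15 in HFC without library 16. These within-group p-values were not adjusted, and the differences between the groups were not tested.

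**Figure D3:**
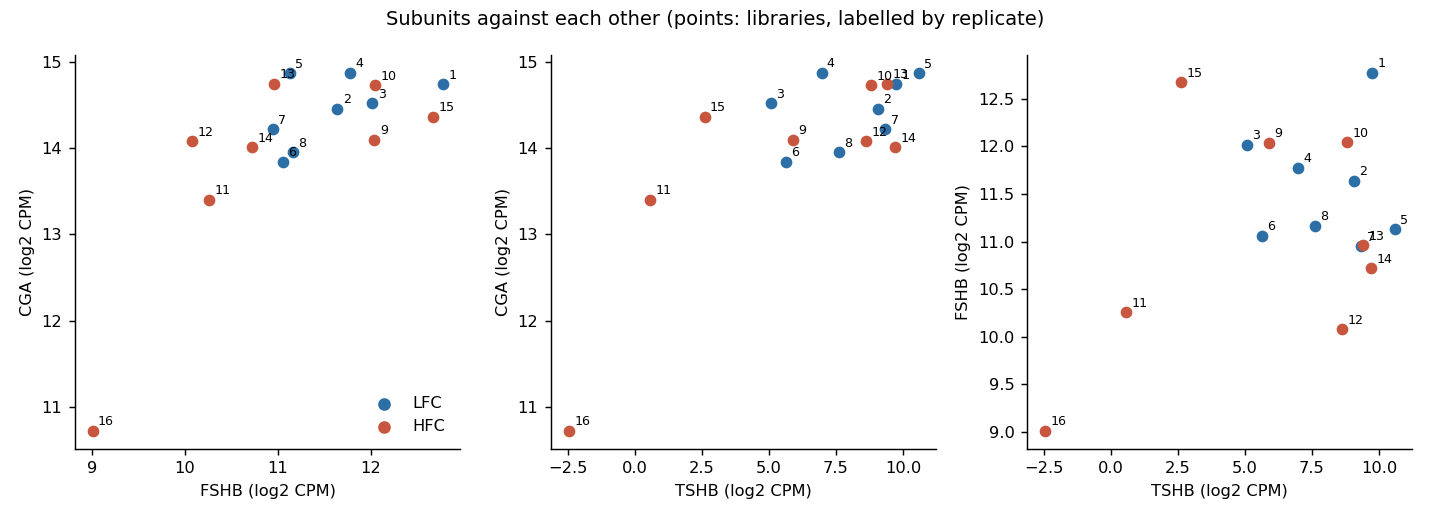
Log2 CPM of CGA against FSHB, CGA against TSHB and FSHB against TSHB; points are libraries labelled by replicate number, blue LFC and red HFC. Library 16 lies at the lower left of each panel, and in the panel of FSHB against TSHB the other 15 libraries show no common direction (r of -0.05).

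Several relations of the subunits with PRL, GH1 and POMC changed sign without library 16. No adjusted p of the other 9 relations was below 0.143. CGA had an r of 0.55 with PRL, 0.37 with GH1 and -0.51 with POMC, and without library 16 these were -0.19, 0.01 and 0.17. FSHB had an r of 0.37 with PRL, 0.30 with GH1 and -0.52 with POMC, and without library 16 -0.07, 0.07 and -0.23.

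Within LFC, TSHB had its largest correlations with GH1 and POMC. Over all 16 libraries its r with GH1 was -0.10 (permutation p = 0.73) and its rho -0.44 (permutation p = 0.0918, adjusted p = 0.367). In LFC alone the r was -0.86 (exact permutation p = 0.00697, not adjusted) and in HFC 0.12 (exact permutation p = 0.797), but -0.40 in HFC without library 16, the same sign as in LFC. Without HFC libraries 11 and 16 the r was -0.69 over 14 libraries (permutation p = 0.00652, not adjusted). With POMC, TSHB had an r of -0.27 (permutation p = 0.316) and a rho of 0.27 over all 16 libraries. The r was 0.89 in LFC (exact permutation p = 0.00228, not adjusted) and -0.54 in HFC (exact permutation p = 0.164). In HFC without library 16 it was 0.09, with a rho of 0.57. Without HFC libraries 11 and 16 the r was 0.60 over 14 libraries (permutation p = 0.0228, not adjusted) and the rho 0.74. The difference between the groups was not tested.

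For each subunit the 10 named genes with the most similar pattern were taken by Spearman rho over the 16 libraries, among 13264 named genes, as a description. The genes most like CGA were CALR (rho 0.90), GPX3 (0.88), CHRAC1 (0.87), FAM136A (0.86) and CRELD1 (0.86), followed by PDIA6, COPZ1, GMNN, RETREG2 and MESD, the last with 0.83. CALR encodes calreticulin, a chaperone of the endoplasmic reticulum, and PDIA6 a protein disulfide isomerase of the same compartment. CALR kept a rho of 0.88 with CGA without library 16. FSHB ranked 893rd and TSHB 1017th among the genes like CGA, so many other mRNAs followed CGA more closely than its own partners did.

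FSHB was most like MANEAL (rho 0.82), SIAE (0.81), NCEH1 (0.79), NELL2 (0.78) and GABRR2 (0.78), and then FYN, ELMOD1, ATPAF1, SEC22A and ARL10 (0.76). NELL2 encodes a secreted glycoprotein, and its level in HFC library 16 was 28.7 CPM against medians of 285.3 CPM in LFC and 281.9 CPM in HFC. CGA ranked 192nd among the genes like FSHB and TSHB 4785th.

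TSHB was most like BTC (rho 0.93), IGFN1 (0.93), SHISA2 (0.92), CD82 (0.91) and PDHA1 (0.90), and then CDCA7L, SLIT3, SMYD2 and GPC3 (0.89). BTC encodes betacellulin, a growth factor of the epidermal growth factor family. CGA ranked 906th among the genes like TSHB and FSHB 5345th.

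**Figure D4:**
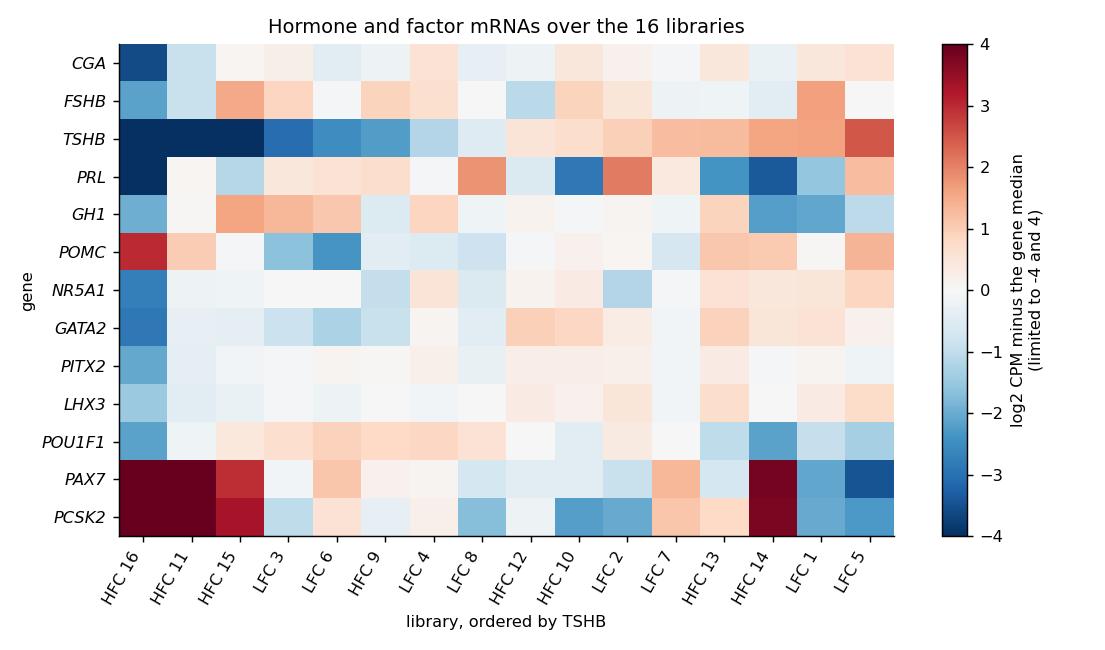
Log2 CPM minus the median of each gene, limited to -4 and 4, for the subunits, PRL, GH1, POMC and 7 factors and markers; columns are the 16 libraries ordered by TSHB from left to right. LHX3 and GATA2 are lowest in library 16, where TSHB is lowest, and PAX7 and PCSK2 are high in HFC libraries 16, 11, 15 and 14.

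The surrounding pathway was described by 10 lists of 124 genes, of which 115 were matched and 106 tested. In the edgeR fit 7 of the 106 had an unadjusted p under 0.05 on the higher side in HFC and 4 on the lower side, and 0 were called. Over all genes tested, 4.29% met that p on the higher side and 1.53% on the lower. Without library 16, 4 listed genes were on the higher side and 3 on the lower, since SSTR3, SLCO1C1, POMC and TBX19 no longer met that p. Of all 14353 genes tested without library 16, 588 met it in either direction. Median log2 fold changes of the lists are given beside -0.01 over all genes tested, of which 51.6% had a value below 0.

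Of the other subunits, GPHA2, the alpha subunit of thyrostimulin, had 3.03 ± 1.5 CPM (SD, n = 8) in LFC and 2.27 ± 1.99 CPM (SD, n = 8) in HFC. GPHB5, its beta subunit, was removed by the filter.

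Among receptors for hypothalamic inputs, 1 of 7 tested genes had an unadjusted p under 0.05, and it was on the lower side. SSTR3, a somatostatin receptor, gave -0.67 on the log2 scale (SE 0.31, unadjusted p = 0.047, edgeR adjusted p = 0.85), or -0.52 (SE 0.25) without library 16. TRHR, the thyrotropin-releasing hormone receptor that drives TSHB, had 8.03 ± 3.08 CPM (SD, n = 8) in LFC and 7.21 ± 6.04 CPM (SD, n = 8) in HFC. Its rho with TSHB was -0.23, or -0.34 without library 16. GNRHR and TRH are not analysed here.

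None of the 14 transcription factors tested had an unadjusted p under 0.05, with 10 values below 0 and a list median of -0.08, or 8 and -0.04 without library 16. NR5A1, which drives gonadotropin subunit genes, had 252.5 ± 101.6 CPM (SD, n = 8) in LFC and 221.3 ± 104.3 CPM (SD, n = 8) in HFC. Its rho was 0.68 with CGA and 0.64 with TSHB, but 0.12 with FSHB, and without library 16 these were 0.61, 0.56 and -0.07. GATA2, which acts on CGA and TSHB, had a rho of 0.72 with TSHB, 0.52 with CGA and 0.02 with FSHB, or 0.65, 0.41 and -0.20 without library 16. LHX3, a LIM homeodomain factor of the anterior lobe that acts on CGA, had a rho of 0.80 with TSHB, and ISL1 one of 0.70 (0.75 and 0.63 without library 16). POU1F1, needed for thyrotrophs, somatotrophs and lactotrophs, had a rho of -0.44 with TSHB (-0.71 without library 16) and a log2 fold change of -0.58 (SE 0.42).

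Of the activin and BMP genes that control FSHB, 1 of 16 tested had an unadjusted p under 0.05, on the lower side. BMP6, a bone morphogenetic protein, had 14 ± 2.73 CPM (SD, n = 8) in LFC and 10.4 ± 1.51 CPM (SD, n = 8) in HFC, a log2 fold change of -0.42 (SE 0.14, unadjusted p = 0.00873, edgeR adjusted p = 0.612). INHBB, which encodes the beta B subunit of activin B and inhibin B, had a rho of 0.42 with FSHB, or 0.29 without library 16. SMAD2, SMAD3 and SMAD4, signal transducers of activin, had rho values of 0.04, 0.02 and 0.37 with FSHB. With TSHB, SMAD2 had a rho of -0.89 (-0.87 without library 16). The activin receptor gene ACVR2A had one of -0.85 with TSHB (-0.82 without library 16). The list median was 0.03.

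All 6 steroid receptor genes had log2 fold changes below 0, with a median of -0.17, and none had an unadjusted p under 0.05. ESR1, through which estradiol feeds back on gonadotrophs, gave -0.16 (SE 0.32) and had a rho of 0.49 with FSHB, and without library 16 these were -0.01 and 0.38.

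In the thyroid hormone feedback list 1 of 12 tested genes had an unadjusted p under 0.05, on the higher side. SLCO1C1, a thyroid hormone transporter, had 1.86 ± 2.52 CPM (SD, n = 8) in LFC and 13.6 ± 19.9 CPM (SD, n = 8) in HFC, with an unadjusted p of 0.0449 and an edgeR adjusted p of 0.85. Its log2 fold change was 2.89, or 2.06 (SE 1.31, unadjusted p = 0.135) without library 16. THRB, the receptor that represses TSHB, gave -0.47 on the log2 scale (SE 0.30) and had a rho of -0.14 with TSHB, or -0.39 without library 16. DIO2, which activates thyroid hormone, had a rho of 0.06 with TSHB.

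The list for glycosylation and sulfation of these hormones, only partly of sulfation genes, had 12 of 14 genes below 0. Its median log2 fold change was -0.11, or 10 of 14 and -0.05 without library 16. None of these genes had an unadjusted p under 0.05. CHST8, a sulfotransferase of gonadotropin glycans, had 125.2 ± 32.7 CPM (SD, n = 8) in LFC and 110.0 ± 41.5 CPM (SD, n = 8) in HFC. Its rho was 0.57 with CGA, 0.50 with FSHB and 0.49 with TSHB, or 0.48, 0.39 and 0.38 without library 16. B4GALNT3, which adds the N-acetylgalactosamine that is then sulfated, had rho values of 0.04 with CGA and 0.42 with FSHB.

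Among 12 granule and secretion genes, SCG2 was the single gene with an unadjusted p under 0.05. This granin, secretogranin II, had 5324 ± 2986 CPM (SD, n = 8) in LFC and 2934 ± 866 CPM (SD, n = 8) in HFC, a log2 fold change of -0.86 (SE 0.27, unadjusted p = 0.00476, edgeR adjusted p = 0.612). Its rho was 0.44 with CGA, 0.32 with FSHB and 0.37 with TSHB, or 0.32, 0.17 and 0.23 without library 16. LFC library 2, with 12517 CPM, was the highest.

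Markers of other hormone cells had 5 of 9 genes at an unadjusted p under 0.05, against 5.82% over all genes tested. Beside PRL and POMC these were TBX19, the factor that drives POMC (log2 fold change 0.62, SE 0.25), PAX7, which specifies melanotrophs (5.31, SE 1.32), and PCSK2, the convertase of melanotrophs (5.34, SE 1.28). The edgeR adjusted p was 0.612 for PAX7 and PCSK2. Without library 16, which had 332.7 CPM of PAX7 and 2595 CPM of PCSK2 against HFC medians of 5.56 and 74.1 CPM, the log2 fold changes were 0.31 (SE 0.16) for TBX19, 2.86 (SE 0.91) for PAX7 and 3.21 (SE 0.89) for PCSK2. PAX7 had a rho of -0.65 with CGA, -0.44 with FSHB and -0.65 with TSHB, or -0.58, -0.31 and -0.58 without library 16. The summed level of PAX7 and PCSK2 was 330.2 CPM in library 11, 136.0 CPM in library 15 and 193.0 CPM in library 14, the last with the highest TSHB of HFC. Markers of the posterior lobe, stem and supporting cells included COL25A1 (log2 fold change 3.47, SE 1.16) and SOX9 (0.97, SE 0.34) on the higher side, 2 of 15 tested, and without library 16 these were 2.51 (SE 1.07) and 0.64 (SE 0.29). The pituicyte sum was 105.1 CPM in library 12 and 1311 CPM in library 14, both with TSHB above the HFC median, and 152.3 CPM in library 15, where TSHB was low.

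**Figure D5:**
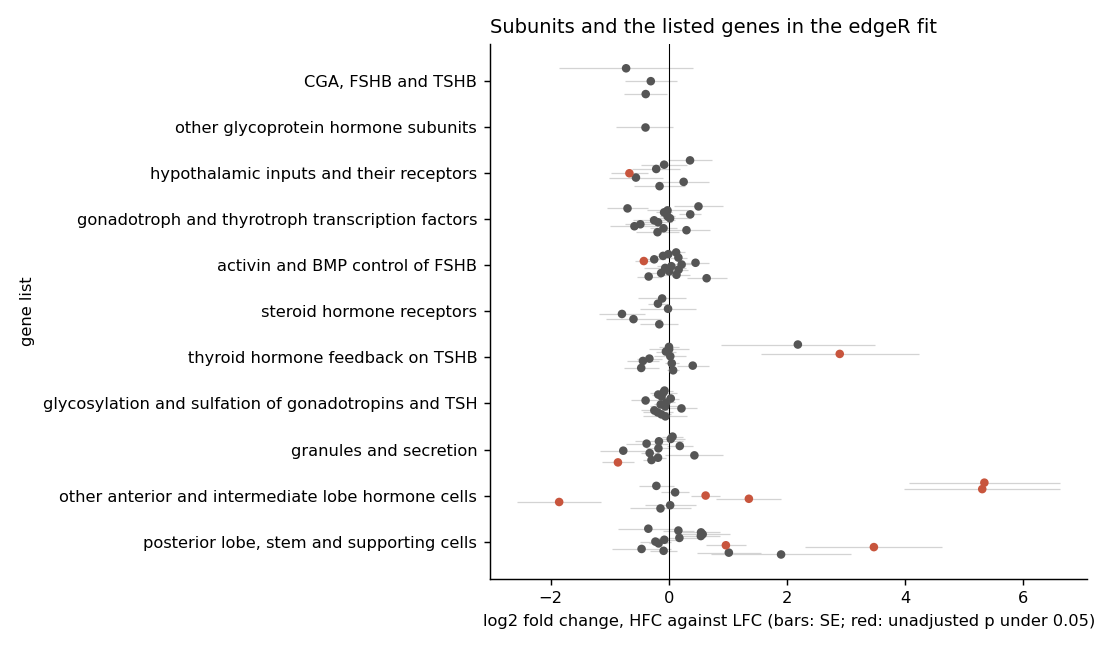
Log2 fold change of HFC against LFC with its standard error for CGA, FSHB and TSHB and for the tested genes of 10 lists, a row for each list; red points have an unadjusted p under 0.05 in edgeR. The subunits lie between -0.72 and -0.30 with bars that cross or nearly reach 0, and the largest values, 5.31 and 5.34, are those of PAX7 and PCSK2, which were 2.86 and 3.21 without library 16.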

How the data were processed

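Counts per gene, not normalised, were deposited as whole numbers for 16 libraries, 1 column each, and all columns were used. The authors cleaned reads of an unstranded poly(A) library kit, aligned them to Sscrofa11.1 and counted them with RSEM and STAR, according to the methods and the submitters' processing notes. Without strand, overlapping and antisense transcripts cannot be told apart. A second deposited table holds the authors' group means, fold changes and p-values, of which only identifiers and symbols were used. Symbols came from that table (10091 genes), from an identifier table (5454) and by position, where a RefSeq gene overlapped by 50% or more (312, POMC among them); 10023 genes had none. Chi-square per degree of freedom was at least 27.1 in the 56 pairs of libraries within groups, so no library was counted as a duplicate. The labels name no farm, slaughter date or batch for single libraries, so such factors cannot be told apart from feed conversion group. Each library is a different gilt, so p-values measure the spread between gilts, whatever its source.

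HFC was set against LFC by the quasi-likelihood test of edgeR 4.0.16 under R 4.3.3 (glmQLFit, glmQLFTest, TMM scaling, filterByExpr, no covariate). The filter removed 11561 genes, 6308 of them without any count. CPM values used TMM scaling, and log2 CPM a prior count of 2. Permutation tests were written in numpy 2.4.6, with 100000 resamples or all assignments, two-sided, and scipy 1.17.1 gave the intervals. The scripts were tested on simulated data. Shares of counts have 95% Wilson intervals and single counts exact Poisson intervals, both for counting error only. DESeq2 1.42.0, limma 3.58.1, other scalings, filters and prior counts, and leaving out libraries were tried as alternatives.

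The subunits, gene lists and tests were chosen with earlier results of these data known. Named genes are the subunits, PRL, GH1 and POMC, list genes that have an unadjusted p under 0.05 or act directly on a subunit, and the 10 genes most like each subunit. A result per transcript length had been intended, but no lengths were at hand, so count ratios are given. LHB, GNRHR, TRH, FOXL2, PITX1, SLC16A10, NKX2-1, S100B and SOX2 are not analysed here. Values of some list genes are not reported here.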

Additional observations from a re-analysis of the deposited data

Results flagged for a closer look

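Single libraries of a group were checked for a gap to the others with Dixon's criterion at the 95% level, in 14 checks of the subunit levels and ratios, where chance gives about 0.7. CGA in HFC library 16 was 10.72 on the log2 CPM scale, whereas the other 7 HFC libraries lay between 13.40 and 14.75. The log2 count ratio of CGA to FSHB plus TSHB in LFC library 1 was 1.80, whereas the other 7 LFC libraries lay between 2.50 and 3.06. That library had the highest FSHB level of the series, 7013 CPM. TSHB gave no such gap in either group, since its low libraries were spread over the whole range.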

How the results depend on the processing

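The group differences of CGA, FSHB and TSHB kept their direction, below 0, under every alternative tried, and none passed a threshold. The fold changes ranged from -0.66 to -0.22 for CGA, from -0.64 to -0.01 for FSHB and from -2.98 to -0.20 for TSHB. DESeq2 called 20 genes where edgeR called 0. TSHB has no value with at least 10 counts required in every library, because library 16 had 1. Without LFC library 5 and HFC libraries 13, 14 and 16, the r of CGA was 0.71 with FSHB and 0.54 with TSHB, both no longer past the adjusted threshold, and the r turned to -0.41 for CGA with PRL, -0.059 for CGA with GH1, -0.33 for FSHB with PRL, -0.077 for FSHB with GH1 and -0.051 for TSHB with PRL. Without LFC library 5 and HFC library 14, the r of TSHB with GH1 was 0.094. With each library left out in turn, the log2 ratio of CGA to FSHB differed between the groups by -0.247 to 0.083, and r ranged from 0.55 to 0.78 for CGA with FSHB, 0.55 to 0.84 for CGA with TSHB, -0.049 to 0.55 for FSHB with TSHB, -0.19 to 0.63 for CGA with PRL, -0.64 to 0.17 for CGA with POMC, -0.069 to 0.46 for FSHB with PRL, -0.65 to -0.23 for FSHB with POMC, -0.17 to 0.46 for TSHB with PRL, -0.53 to 0.021 for TSHB with GH1 and -0.37 to 0.24 for TSHB with POMC. The adjusted threshold was lost without library 16 for CGA with FSHB, lost without library 11 or 16 for CGA with TSHB, and reached without LFC library 6 for FSHB with POMC. The cause was not tested. The within-group SD ranks and, without library 16, the within-group correlations, count ratios and values of listed genes were added after seeing the data. No paired analysis was possible because the gilts were unrelated and no label pairs an LFC gilt with an HFC gilt. Transcript and coding lengths were not at hand, so the ratios per length were not run.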
